A study of Mus musculus with 18 samples.

Results

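The genes described here code for proteins of desmosomes and adherens junctions, the contacts that hold keratinocytes to each other. They are Cdh1, Dsg1a, Dsg3, Dsc2, Dsc3, Dsp, Pkp1, Pkp3, Jup and Perp, 10 of the 32285 genes in each count matrix, taken by symbol and present in all 10 mRNA libraries. Mouse skin was stretched by a hydrogel expander placed under it, and single living cells (sorted without the dye DAPI) were sequenced on the 10x Genomics platform. Mice of the expanded arm carried the expander near the neck, whereas mice of the control arm had the same surgery, with its incision, path under the skin and stitches, and no expander. Skin was taken on day 1, 2 or 4. Each arm had 5 libraries, which were 2 sequencing rounds on day 1, 2 rounds on day 2 and 1 round on day 4. A library pools the mice of 1 arm in 1 round, so the libraries are the replicates and their spread holds the spread between pools, not between single mice. Strain, sex and age of the mice are not given in the sources used here, and unoperated skin was not analysed here.

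An adherens junction joins the actin filaments of neighbouring cells through E-cadherin, the product of Cdh1, and the catenins bound to it. A desmosome joins their keratin filaments: desmogleins (Dsg genes) and desmocollins (Dsc genes) span the gap between cells, and inside the cell plakoglobin (Jup) and the plakophilins (Pkp genes) bind their tails and hand the load to desmoplakin (Dsp), which holds the keratins. PERP is a membrane protein that desmosomes of the skin need, and plakoglobin serves both kinds of junction. In stratified epidermis desmoglein 3 is known from the lower layers and desmoglein 1 from the upper layers.

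The 10 matrices held 55174 barcodes, of which 45776 were kept as cells. Total UMIs (unique molecular identifiers, 1 per captured mRNA molecule) ran from 17726739 to 75470722 per library, kept cells from 1891 to 7973 and the median UMIs per cell from 6325 to 12755. Of 54812 distinct barcodes, 361 occurred in more than 1 library, at most 23 between any 2 libraries. Levels are given in CPM, the gene's UMIs scaled to the same total in every sum, out of all UMIs of that kind of cell in that library. They can be set side by side for 1 gene, and not between genes, which differ in how they are captured.

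Keratinocytes fell into 19 clusters that were made without the junction genes and named from marker genes, each name standing for cells like that type. The basal cells formed 2 clusters, cluster 4 with 28 control and 298 expanded cells and cluster 5 with 91 control and 30 expanded cells. Spinous cells, whose cluster was led by Krt1 and Krt10, numbered 254, and Krt79-high cells of the upper hair follicle numbered 263, and these were also tested together as suprabasal cells. Upper follicle basal cells numbered 945, bulge cells 2204, cycling cells 229, sebaceous cells 196 and inner root sheath or hair shaft cells 228, of which 215 were control cells. Sums of fewer than 20 cells were left out, so the tests compared 3 control with 4 expanded libraries in basal cells, 4 with 4 in suprabasal cells, and 5 with 5 in upper follicle basal cells and in bulge cells.

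The annotation GENCODE vM21 (GRCm38) places Dsp at chr13:38151294-38198577 on the plus strand and Jup at chr11:100368958-100397763 on the minus strand. Cdh1 lies at chr8:106603351-106670246, Perp at chr10:18845020-18857073, Pkp1 at chr1:135871395-135919207 and Pkp3 at chr7:141078218-141090510, and the 4 desmosomal cadherin genes form a cluster on 1 chromosome. The 250 bases before the start of Dsp (chr13:38151044-38151293) and of Jup (chr11:100397791-100398040) are shown because, of the 10 genes, these alone had an entry in the promoter table. They are from RefSeq (GRCm38.p6), 5′ to 3′ on the gene's strand, and capitals mark the GC box GGGCGG on either strand.
Dsp: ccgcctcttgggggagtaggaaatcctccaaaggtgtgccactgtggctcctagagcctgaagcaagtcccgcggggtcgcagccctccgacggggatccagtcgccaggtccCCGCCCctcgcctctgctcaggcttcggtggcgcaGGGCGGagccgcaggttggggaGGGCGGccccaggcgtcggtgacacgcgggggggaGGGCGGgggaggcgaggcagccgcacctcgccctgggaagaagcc
Jup: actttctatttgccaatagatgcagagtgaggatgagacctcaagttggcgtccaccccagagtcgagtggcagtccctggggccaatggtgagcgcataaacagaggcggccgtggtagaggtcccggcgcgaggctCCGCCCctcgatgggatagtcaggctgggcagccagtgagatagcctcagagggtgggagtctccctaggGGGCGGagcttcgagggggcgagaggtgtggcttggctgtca
The Dsp stretch held 4 GC boxes, from 137 to 45 bases before the start, and the Jup stretch held 2, at 112 and 42 bases. Of 32851 promoters of that length, 32.74% held at least 1. GC content was 72.4% in the Dsp stretch and 62.0% in the Jup stretch, against a median of 52.4%. Neither stretch held the E-box CANNTG (66.22% of promoters), its form CAGGTG (17.22%), which overlaps it, the Grainyhead-like motif AACCGG (5.622%) or the TATA box TATAAA (12.37%), each searched on both strands.

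The level of Cdh1 was highest in Krt79-high cells, at 374 ± 104 CPM (SD, n = 5 libraries of both arms), followed by spinous cells at 275 ± 31.3 CPM (n = 3) and upper follicle basal cells at 247 ± 74.5 CPM (n = 10). Basal cells followed at 165 ± 39.1 CPM (n = 7), then cycling cells at 152 ± 22.0, bulge cells at 126 ± 29.9 and sebaceous cells at 110 ± 44.4 CPM. Root sheath cells were lowest at 64.9 ± 20.6 CPM (n = 3, all of the control arm). Neighbours in this order differed by less than the larger of their SDs, except at the steps from upper follicle basal to basal cells and from sebaceous to root sheath cells, where the gap was slightly larger. The subsets were set side by side without a test, and their mix of arms differed. Spinous and sebaceous cells each had 2 control libraries and 1 expanded library.

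Dsg1a separated the subsets most sharply of the 4 desmosomal cadherins. It reached 600.1 ± 36.6 CPM in spinous cells (n = 3), 291 ± 127 in Krt79-high cells (n = 5) and 98.5 ± 54.8 in basal cells (n = 7), and 33.3 or less on average in every other subset, with 0.255 in sebaceous cells. Dsg1a, Dsg1b and Dsg1c are near-identical copies, so reads could be shared between them, and Dsg1a values carry that uncertainty. Dsg3 had another order: bulge cells at 285 ± 85.1 CPM (n = 10), basal cells at 271 ± 46.4 (n = 7) and Krt79-high cells at 257 ± 90.2 overlapped, then came cycling cells at 171 ± 46.4 and upper follicle basal cells at 168 ± 32.8. Spinous cells had 114 ± 59.1 CPM of Dsg3, root sheath cells 53.2 ± 8.35 and sebaceous cells 6.38 ± 4.40. Dsg1a was thus highest, and Dsg3 among the lower subsets, in the cells led by Krt1 and Krt10. For Dsg3 the arms differed there: control spinous libraries had 80.6 ± 8.69 CPM (n = 2) and the expanded library 182. Upper follicle basal cells had 174 ± 37.8 CPM in control and 162 ± 29.9 in expanded libraries (n = 5 each).

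The desmocollin Dsc3 was highest in spinous cells, at 752 ± 49.2 CPM (n = 3), and in Krt79-high cells, at 734 ± 91.7 CPM (n = 5), which did not differ beyond their spread. Basal cells had 445 ± 77.6 CPM, bulge cells 421 ± 26.1, upper follicle basal cells 333 ± 52.8, root sheath cells 194 ± 52.3 and sebaceous cells 115 ± 26.2. Dsc2 was close to the limit of detection everywhere: its mean was 14.9 ± 14.2 CPM in Krt79-high cells (n = 5) and between 0 and 2.79 CPM in the other subsets. Sebaceous cells had no Dsc2 UMI in any library, and in the deepest of these sums 3 counts would be 2.30 CPM. Such limits and the intervals of counts cover counting error only.

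The plaque genes and Perp were highest in spinous and Krt79-high cells. Dsp had 1732 ± 373 CPM in Krt79-high cells (n = 5) and 1610 ± 145 in spinous cells (n = 3), against 992 ± 180 in bulge (n = 10), 905 ± 167 in basal (n = 7) and 736 ± 103 CPM in upper follicle basal cells (n = 10). Jup had 739 ± 110 CPM in spinous and 725 ± 110 in Krt79-high cells, and between 282 and 334 CPM on average in basal, bulge and upper follicle basal cells. Perp had 3075 ± 237 CPM in spinous and 2818 ± 307 in Krt79-high cells, and 1213 to 1468 CPM on average in the same 3 subsets. Pkp1 followed them, at 408 ± 43.8 CPM in Krt79-high, 352 ± 35.3 in spinous, 189 ± 31.7 in basal and 95.0 ± 27.4 in bulge cells. Pkp3 was the flattest, from 243 ± 33.7 CPM in spinous cells to 144 ± 13.8 in upper follicle basal cells, and 96.3 ± 14.6 in root sheath cells. Root sheath or sebaceous cells were lowest for all 10 genes.

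**Figure D1:**
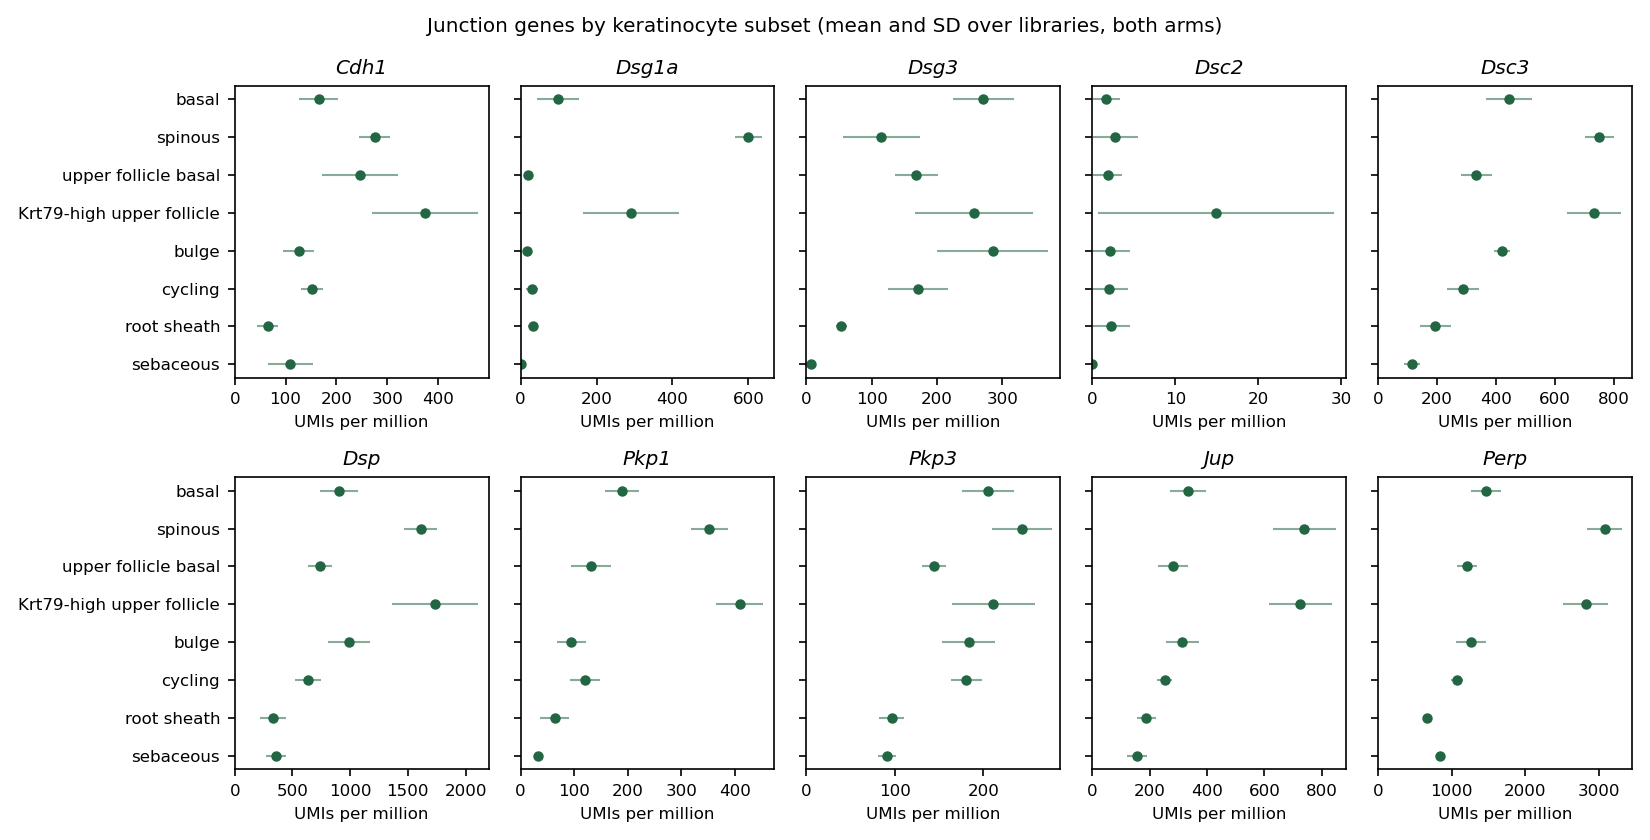
Level of each junction gene (horizontal axis, CPM; points are means and bars SDs over the libraries of both arms with at least 20 cells) in 8 kinds of keratinocyte (vertical axis). Root sheath cells had control libraries only. Dsg1a stands at 600.1 in spinous cells, while Dsg3 stands at 114 there and at 271 in basal cells.

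Single clusters spread within these subsets. Of the basal clusters, cluster 5, mostly control cells, had 175 CPM of Dsg1a and 218 of Cdh1, and cluster 4, mostly expanded cells, had 72.1 and 145 CPM. Of the 6 bulge clusters, cluster 11 (led by Fgf18 and Dclk1) had 469 CPM of Dsg3, 1522 of Dsp, 617 of Jup and 3284 of Perp. It drew 39.6% of its 202 cells from 1 library. Bulge cluster 10 (led by Slc7a2 and Fam13a) had 156, 554, 228 and 836 CPM of the same genes. Cdh1 was highest among bulge clusters in cluster 7, at 263 CPM.

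Over the 46 sums of a subset and library with at least 20 cells, the level of Dsp, as log2(CPM + 1), went with that of Dsc3 (Pearson r = 0.908), Jup (0.885), Perp (0.871) and Pkp1 (0.816), and least with that of Dsc2 (0.532). Among 5512 genes with a mean of at least 20 CPM, the 5 most like Dsp outside these 10 were Pla2g2f (0.899), Krt80 (0.895), Clic3 (0.856), Pof1b (0.846) and Tspan9 (0.837). The values of Cdh1 were highest with Pkp1 (0.764), Jup (0.720), Dsp (0.715) and Perp (0.713) and lowest with Dsg3 (0.315). The genes most like Cdh1 were Slc12a2 (0.890), Sox7 (0.867), Clip1 (0.865), Net1 (0.834) and Klk7 (0.824). Sums of 1 library share its depth and its free RNA, and these values are a description.

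Expansion moved few of these genes past the threshold. In suprabasal cells Dsg3 rose with expansion, and in upper follicle basal cells Cdh1 fell, by edgeR's quasi-likelihood test, with day in the model and Benjamini-Hochberg adjustment over all genes tested (threshold 0.05). Of the 9 genes that passed the count filter of this test (Dsc2 did not pass it in any subset), 0 passed in basal, 1 in suprabasal, 1 in upper follicle basal and 0 in bulge cells. Of all genes tested, 10.6%, 7.84%, 3.03% and 1.77% passed in these 4 subsets, so counts of 0 or 1 of 9 were near the background. Split by direction, 4.28%, 3.48%, 0.877% and 0.893% of all genes passed as higher and 6.30%, 4.36%, 2.15% and 0.873% as lower. At an unadjusted p under 0.05 the counts were 3, 2, 3 and 2, and DESeq2 called 0, 1, 1 and 1. The median log2 fold change of the 9 genes was −0.39, −0.20, −0.20 and 0.15, against 0.01, 0.0055, −0.0013 and −0.0061 over all genes tested, and 1, 3, 3 and 7 of them were fitted above 0.

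**Figure D2:**
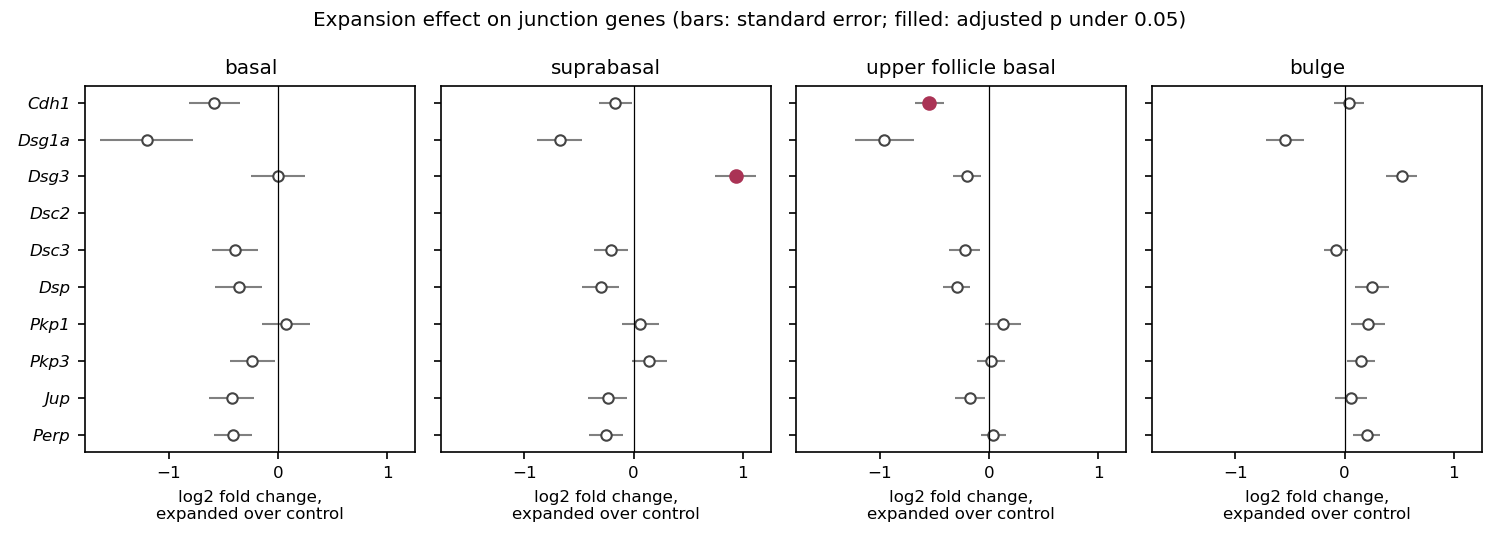
Log2 fold change of expanded over control libraries (horizontal axis; bars are standard errors) for each junction gene with enough counts, in 4 kinds of keratinocyte, with filled points where the adjusted p is under 0.05. The filled points are Dsg3 in suprabasal cells at 0.94 and Cdh1 in upper follicle basal cells at −0.55.

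Cdh1 in upper follicle basal cells had 352 and 398 CPM in the control libraries of day 1 (rounds 1 and 2), 202 and 217 on day 2 and 262 on day 4. The expanded libraries had 223 and 264 CPM on day 1, 190.0 and 182 on day 2 and 179 on day 4. In each of the 5 pairs of the same day and round the expanded library was the lower one, although the arms overlapped because day 1 was high in both. The mean was 286 ± 85.6 CPM in control and 208 ± 36.0 in expanded libraries (SD, n = 5 each), and the log2 fold change was −0.55 ± 0.13 (SE, edgeR adjusted p = 0.037), where 2.15% of all genes passed as lower. The call was lost without either library of day 4 (adjusted p = 0.175 without the control and 0.171 without the expanded one), without any of the 4 libraries of day 1 (0.073 to 0.118) and without the expanded library of day 2, round 2 (0.057). With a coarser clustering (resolution 0.5) the value was −0.34 (0.177).

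In the other subsets Cdh1 did not pass. Basal control libraries had 245, 167 and 174 CPM (days 1, 2 and 4) and expanded libraries 124 and 151 (day 1), 155 (day 2) and 138 (day 4), so the arms did not overlap, as for 23.5% of all genes tested there. The log2 fold change was −0.58 ± 0.24 (edgeR adjusted p = 0.125). It was −0.17 ± 0.15 in suprabasal cells (0.550) and 0.04 ± 0.14 in bulge cells (0.913), where control libraries ran from 75.7 to 177 CPM and expanded ones from 109 to 153.

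Dsg3 in suprabasal cells had 159 and 93.2 CPM in the control libraries of day 1, 167 on day 2 and 157 on day 4. The expanded libraries had 314 and 257 CPM on day 1, 353 on day 2 and 281 on day 4. Every expanded library lay above every control library, and the expanded one was higher in each of the 3 pairs. The mean rose from 144 ± 34.1 to 301 ± 41.5 CPM (SD, n = 4 each), and on the log2 scale by 0.94 ± 0.19 (SE), with an edgeR adjusted p of 0.0097. Among all genes tested, 3.48% passed as higher and 12.6% had arms that did not overlap. Without the expanded library of day 1, round 2, which held the most cells, the value was 0.96 with an adjusted p of 0.051.

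The suprabasal class joins 2 kinds of cell whose shares differed between the arms: spinous cells made up 151 and Krt79-high cells 94 of the control cells, and 103 and 169 of the expanded ones. Dsg3 was therefore also read in each, over libraries with at least 10 cells. In spinous cells the control libraries had 74.4, 86.7 and 85.6 CPM (day 1, both rounds, and day 4) and the expanded ones 268, 182 and 113, with no overlap and a log2 fold change of 1.10 (edgeR adjusted p = 0.018). In Krt79-high cells the control libraries had 305, 128, 197 and 229 CPM and the expanded ones 370, 337, 407, 299 and 318. These arms overlapped, and the log2 fold change of 0.57 did not pass (adjusted p = 0.179). With a finer clustering (resolution 1.5) the value for Dsg3 in suprabasal cells was 0.64 (0.056).

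Other values moved with Dsg3 in these sums. Krt14, the keratin of basal cells, was at 4076 ± 1928 CPM in control and 7587 ± 1511 in expanded suprabasal libraries, and Krt10, the keratin of spinous cells, at 6603 ± 3026 and 2739 ± 1546 CPM. Within spinous cells Krt14 was at 3240 ± 1157 and 5918 ± 935 CPM and Krt10 at 9887 ± 851 and 6250 ± 1482 CPM (n = 3 each). Within Krt79-high cells Krt14 was at 4233 ± 2176 and 9094 ± 1905 CPM and Krt10 at 3018 ± 2135 and 407 ± 345 CPM (n = 4 control and 5 expanded libraries). The part of these differences in the rise of Dsg3 was not tested. The share of spinous cells with a Dsg3 UMI was read after thinning every cell to 2000 UMIs, with the libraries of an arm pooled. It was 12.5% of 144 control and 31.7% of 101 expanded cells. Median depths before thinning were 11876 and 18691 UMIs. In fibroblasts, which should lack the gene, the share was 0.0757% of 7926 control cells at a median of 11340.5 UMIs. Pooled cells are not replicates, so these shares hold no spread between libraries, and they were not tested. Most spinous cells came from the libraries of day 1, round 2, with 88 of 151 control and 69 of 103 expanded cells.

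In basal cells Dsg3 showed no such shift: control libraries had 243, 206 and 349 CPM and expanded ones 299, 281, 279 and 240.3, a log2 fold change of −0.00027 ± 0.25 (edgeR adjusted p = 0.999). The difference between the 2 effects was 1.02 ± 0.26 on the log2 scale and did not pass (adjusted p = 0.193, 0.121% of all genes passed), although without the control library of day 2, round 2, it was 1.34 (0.018). The log2 fold change in upper follicle basal cells was −0.20 ± 0.13 (0.396). In bulge cells Dsg3 had 337 and 247 CPM in the control libraries of day 1, 151 and 223 on day 2 and 195 on day 4, and 381 and 430.4, 309 and 277, and 301 CPM in the matching expanded libraries. The expanded library was higher in 5 of 5 pairs, the arms overlapped, and the log2 fold change of 0.52 ± 0.14 did not pass with edgeR (0.075) and passed with DESeq2 (0.51, adjusted p = 0.015). At the coarser clustering (resolution 0.5) the bulge value was 0.25 (edgeR adjusted p = 0.288), and with bulge subclusters weighted equally it was 0.35 (0.245). Summed over all named keratinocyte clusters, whose makeup differed between the arms, Dsg3 had a log2 fold change of 0.74 (edgeR adjusted p = 0.0065) and Pkp1 one of 0.42 (0.046).

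Dsg1a was fitted below 0 in all 4 subsets without passing in any. In suprabasal cells the control libraries had 533 and 574 CPM on day 1, 239 on day 2 and 579 on day 4, and the expanded ones 472 and 415, 236 and 209.7 CPM. The expanded library was lower in 3 of 3 pairs, and the arms overlapped because the control library of day 2 was low. The log2 fold change was −0.68 ± 0.21 (edgeR adjusted p = 0.059), and −0.86 with each day and round as a block, which passed (0.022). No pair of day 2 was complete, so the block compared the arms on days 1 and 4 only. Leaving out the control (−0.85, 0.036) or the expanded library of day 2 (−0.85, 0.034) did the same, and the value also passed. It was −0.41 or −0.40 without either library of day 4. The low control library of day 2, round 2, held 28 Krt79-high and 7 spinous cells. In spinous cells alone Dsg1a had 640.3, 591 and 745 CPM in control libraries (day 1, both rounds, and day 4) and 698, 569 and 352 in expanded ones, a log2 fold change of −0.40 (edgeR adjusted p = 0.372). In Krt79-high cells alone the control libraries had 348, 483, 191 and 412 CPM and the expanded ones 197, 252, 155, 288 and 178, a log2 fold change of −0.75 (0.138). The arms overlapped in both kinds of cell. In basal cells the control libraries had 173, 65.5 and 160.4 CPM and the expanded ones 96.8, 105, 71.7 and 16.4, a log2 fold change of −1.20 ± 0.43 (0.089), and −1.82 with the block, which passed (0.036). In basal cells only the pairs of day 1, round 2, and of day 4 were complete, so the block compared the arms on these alone.

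The basal value of Dsg1a leaned on day 4, where control cells had 160.4 and expanded cells 16.4 CPM. Without either library of day 4 it was −0.58 or −0.59. Without the expanded or the control library of day 2 it was −1.62, and passed (adjusted p = 0.019 and 0.017). Day 2 had 1 library per arm in basal cells, so both of these fits compared the arms on days 1 and 4 only. With libraries of at least 10 cells the basal value of Dsg1a was −1.19 and also passed (0.031). The basal clusters were filled unequally, as given with the cluster counts, and cluster 4, which held most expanded cells, was the one with less Dsg1a. Among upper follicle basal cells, control libraries had 29.9, 29.5, 15.1, 24.1 and 20.2 CPM and expanded ones 23.3, 17.0, 11.6, 16.6 and 2.99. That was lower in 5 of 5 pairs, with a log2 fold change of −0.96 ± 0.27 (edgeR adjusted p = 0.064). In bulge cells Dsg1a was between 15.1 and 25.0 CPM in control and between 9.64 and 17.9 in expanded libraries, again lower in 5 of 5 pairs, at −0.55 ± 0.17 (0.115).

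**Figure D3:**
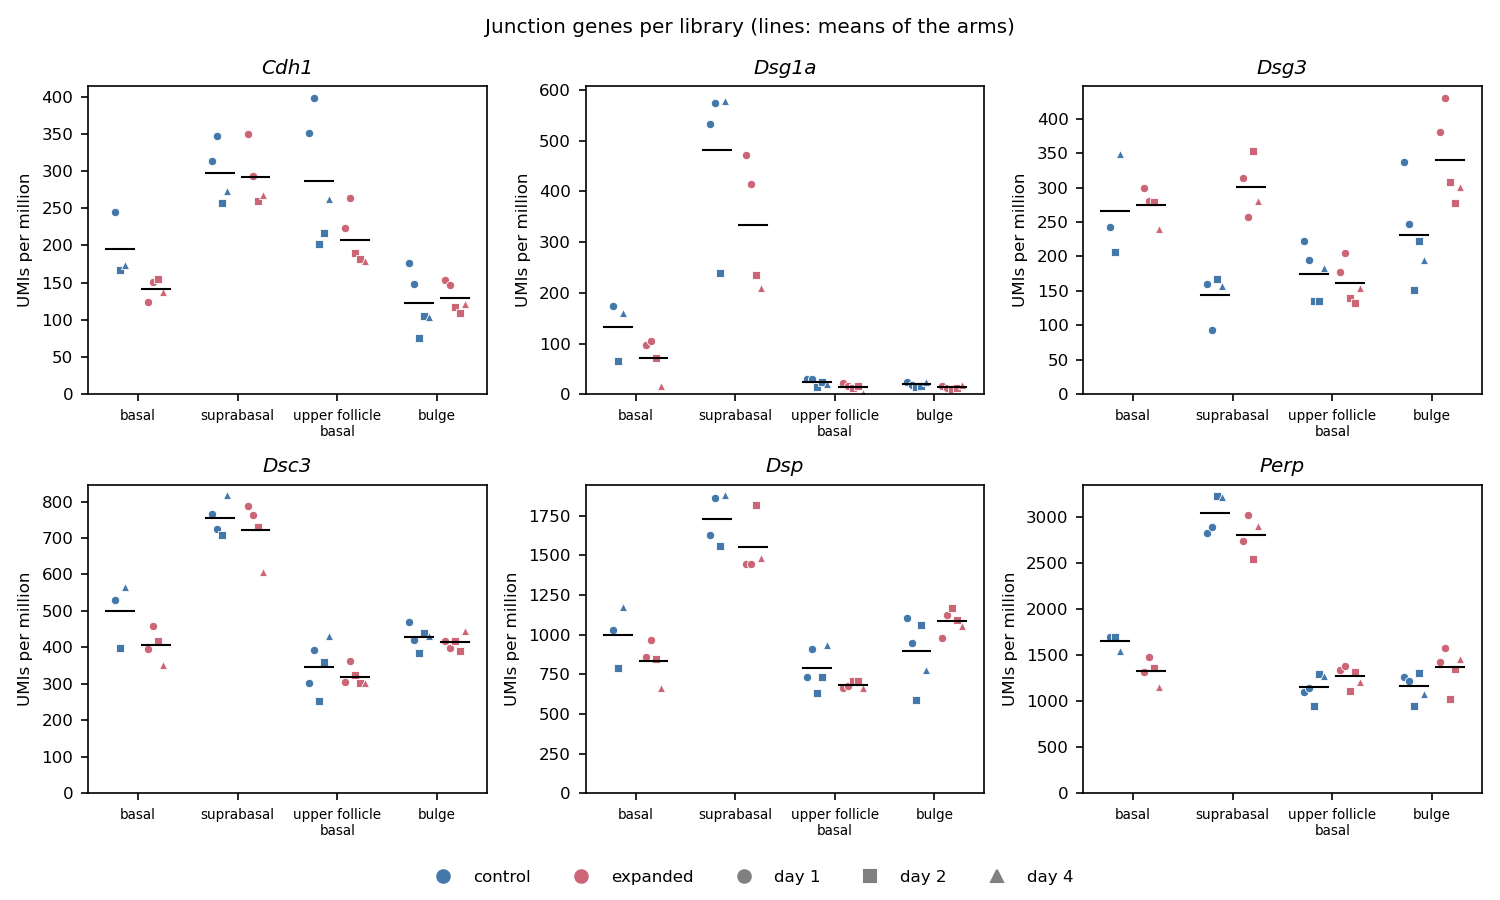
Level of 6 junction genes in each library (vertical axis, CPM; symbols give the day, colours the arm, lines the means of the arms) in 4 kinds of keratinocyte. Dsg3 in suprabasal cells shows no overlap of the arms (93.2 to 167 against 257 to 353), and Dsg1a in basal cells has its lowest point, 16.4, in the expanded library of day 4.

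The balance of Dsg1a to Dsg3 within a library does not depend on its scaling. As the log2 ratio of counts (0.5 added to each), it was on average 1.69 ± 0.87 in control and 0.07 ± 0.66 in expanded suprabasal libraries (SD, n = 4 each), a difference of −1.62. By an exact permutation test of the arms within each day (two-sided) this gave p = 0.083, the smallest that 24 arrangements allow. In bulge cells the ratio was −3.47 ± 0.40 in control and −4.58 ± 0.41 in expanded libraries (n = 5 each), a difference of −1.12, and the arms did not overlap (exact p = 0.028, the smallest that 72 arrangements allow). The difference was −0.86 in upper follicle basal cells (exact p = 0.056) and −1.14 in basal cells (exact p = 0.25). Over the 12 tests of 3 ratios in 4 subsets the adjusted permutation p was 0.25 for the first 3 and 0.476 for basal cells, so none passed. Since both genes were described from the same libraries, the ratio adds no independent evidence to their own values.

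**Figure D4:**
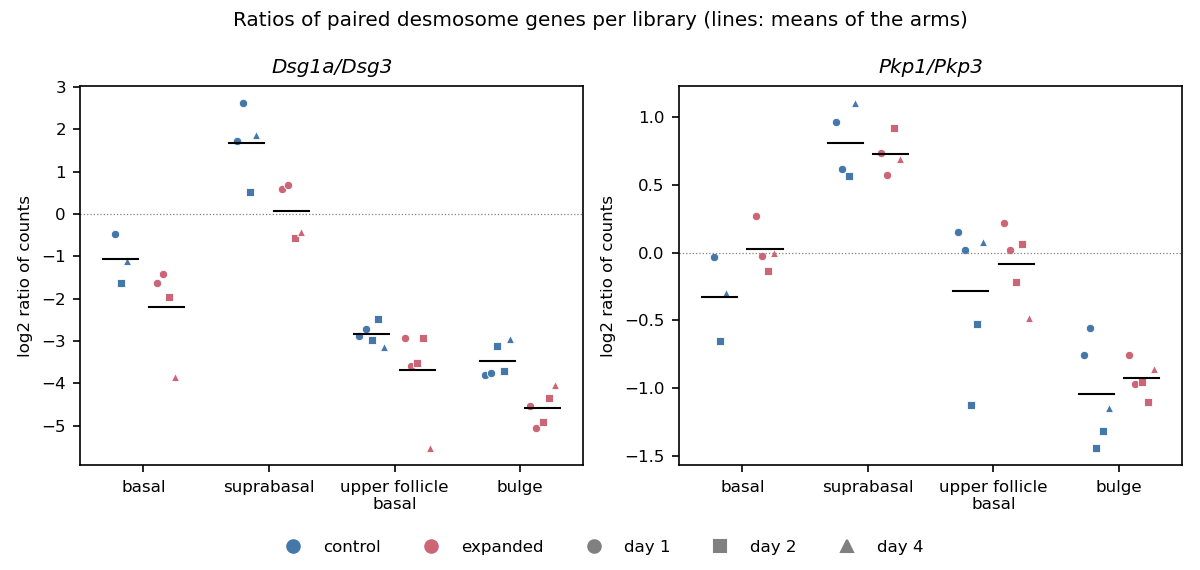
Log2 ratio of counts of Dsg1a to Dsg3 and of Pkp1 to Pkp3 in each library (vertical axis; symbols give the day, colours the arm, lines the means of the arms) in 4 kinds of keratinocyte. The mean of Dsg1a to Dsg3 differs by −1.62 to −0.86 between the arms, lower in the expanded one in each kind of cell, and that of Pkp1 to Pkp3 by −0.08 to 0.35.

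Dsc3 differed little between the arms. Its means were 498.5 ± 87.2 and 406 ± 45.2 CPM in control and expanded basal libraries, 754 ± 48.2 and 722 ± 80.1 in suprabasal, 347 ± 71.4 and 320 ± 26.3 in upper follicle basal and 428 ± 31.0 and 415 ± 21.2 in bulge libraries. Log2 fold changes ran from −0.39 ± 0.21 in basal cells to −0.08 ± 0.11 in bulge cells, with edgeR adjusted p from 0.240 to 0.771. Dsc2 had 2.53 to 9.89 CPM in control and 2.97 to 17.3 in expanded suprabasal libraries, and at most 7.49 CPM in any library of the other 3 subsets, and did not pass the count filter of the test of expansion. The Dsc2 to Dsc3 ratio had no p under 0.139 in the exact permutation tests.

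Desmoplakin, the link to the keratins, did not pass in any of the 4 subsets. In upper follicle basal cells Dsp control libraries had 730.3 and 908 CPM on day 1, 629.8 and 734 on day 2 and 934 on day 4, and Dsp expanded libraries lay close together, between 663 and 710.1 CPM. The arms overlapped, the expanded library was lower in 4 of 5 pairs, and the log2 fold change of −0.30 ± 0.12 did not pass (edgeR adjusted p = 0.192). Dsp was at −0.36 ± 0.21 in basal (0.288), −0.30 ± 0.17 in suprabasal (0.288) and 0.25 ± 0.16 in bulge cells (0.413). Jup was between −0.43 and 0.06 in the 4 subsets, with adjusted p from 0.196 to 0.882. In suprabasal cells its expanded libraries had 1031 and 629 CPM on day 1, 643 on day 2 and 614 on day 4, so that 1 library stood above the control range of 696 to 855 CPM and the other 3 below it.

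Neither plakophilin gene passed in any of the 4 subsets. Pkp3 in suprabasal cells had 185, 229, 229.7 and 228 CPM in control libraries and 309, 265, 244 and 241 in expanded ones. These arms did not overlap, yet relative to the other genes of the libraries the log2 fold change was 0.15 ± 0.16 (edgeR adjusted p = 0.619). Pkp1 had 362, 351, 340.0 and 491 CPM in control and 516, 396, 463 and 389 in expanded suprabasal libraries, and a log2 fold change of 0.06 ± 0.17 (0.862). In the other subsets Pkp1 was between 0.07 and 0.21 and Pkp3 between −0.24 and 0.15, none of which passed. The Pkp1 to Pkp3 ratio in basal cells differed by 0.35 (exact permutation p = 0.083, the smallest that 12 arrangements allow, and 0.25 adjusted).

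Perp in basal cells had 1701, 1704 and 1548 CPM in control libraries and 1317, 1486, 1362 and 1157 in expanded ones, with no overlap. The log2 fold change of −0.41 ± 0.18 did not pass (edgeR adjusted p = 0.148), and with libraries of at least 10 cells, which let in 1 more of each arm, it was −0.48 and passed (0.034). Perp was at −0.25 ± 0.16 in suprabasal, 0.04 ± 0.11 in upper follicle basal and 0.20 ± 0.12 in bulge cells, with adjusted p of 0.351 or more, although it was higher in the expanded library in 5 of 5 bulge pairs. In all, arms did not overlap for Cdh1 and Perp in basal cells (23.5% of all genes tested) and for Dsg3 and Pkp3 in suprabasal cells (12.6%), and for none of the 9 genes in upper follicle basal cells (3.93% of all genes tested) or bulge cells (3.24%).

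Whether the effect of expansion differed between days was tested with the terms of arm by day together. Dsg1a in basal cells passed (edgeR F = 18.4, adjusted p = 0.0034), where 2.34% of all genes passed. The expanded over control levels were 96.8 and 105 over 173 CPM on day 1, 71.7 over 65.5 on day 2 and 16.4 over 160.4 on day 4. That test left 1 residual degree of freedom and 1 library per arm on day 4, and without the control or the expanded library of day 4 it compared days 1 and 2 only and gave adjusted p of 0.217 and 0.220. With cells thinned to 2000 UMIs it gave 0.858, but 2 control libraries were left, neither from day 4, so that fit also compared days 1 and 2 only. None of the other 8 junction genes tested passed in basal cells, where Cdh1 and Dsp had an unadjusted p under 0.05. Dsc2 passed the count filter of this test in suprabasal and bulge cells. By edgeR, 0 of 10 passed in suprabasal (0.0867% of all genes passed), 0 of 9 in upper follicle basal (0.0214%) and 0 of 10 in bulge cells (0%), with 1, 1 and 0 at an unadjusted p under 0.05, Dsg1a in both cases. DESeq2 was not run for this test.

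Levels of markers of other cells, and depth, differed between the arms beside these results. The summed level of 6 fibroblast markers had medians of 396 to 575 CPM in control and 25.6 to 78.1 CPM in expanded libraries over the 4 subsets, with at most 2 of the 6 at 0 in any library. The summed level of 5 neutrophil markers, among them S100a8 and S100a9, ran from 0 to 4.33 CPM in control and 10.5 to 2149 in expanded basal libraries, and from 6.15 to 23.5 and 59.7 to 2531 CPM in suprabasal ones, with up to 5 and 3 of the 5 at 0 in control libraries and up to 2 in expanded ones. In upper follicle basal cells the neutrophil sum ran from 0 to 13.1 CPM in control and 5.53 to 173 in expanded libraries. In bulge cells it ran from 0 to 3.74 and 4.96 to 26.9 CPM. Whether keratinocytes themselves held these transcripts was not tested. Median UMIs before thinning were 8834 in control and 20231 in expanded basal cells and 9609 and 13984.5 in upper follicle basal cells. The part of these markers and of depth in the values of Cdh1, Dsg1a and Dsg3 was not tested, while thinned counts gave 1.14 for Dsg3 in suprabasal cells (adjusted p = 0.016) and −0.72 for Cdh1 in upper follicle basal cells, with an adjusted p just under the threshold.

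Several tight junction genes, which seal the gap between keratinocytes, fell in 3 of the 4 subsets. Of 12 listed genes, 4 of 6 tested passed as lower in basal, 5 of 10 in suprabasal, 5 of 8 in upper follicle basal and 0 of 7 in bulge cells, and none passed as higher (medians of −1.26, −0.86, −0.89 and −0.67). In bulge cells 3 had an unadjusted p under 0.05, and DESeq2 called 1. DESeq2 called 3, 2 and 5 in the other subsets. Of all genes tested, edgeR called 6.30%, 4.36%, 2.15% and 0.873% as lower in basal, suprabasal, upper follicle basal and bulge cells. In either direction it called 10.6%, 7.84%, 3.03% and 1.77%, the background for the lists below too. These lists were chosen with earlier results of these data known. The makeup of the suprabasal and basal classes differed between the arms, as given above. Its part in the rises and falls of the listed genes was not tested. Cldn1, a claudin of the epidermal barrier, fell from 553 ± 87.2 to 275 ± 74.1 CPM in suprabasal cells, a log2 fold change of −1.16 ± 0.16 (SD, n = 4 each, edgeR adjusted p = 0.0013). It fell by 0.95 ± 0.15 on the log2 scale in upper follicle basal cells (0.0045) and by 1.33 ± 0.27 in basal cells (0.014). The scaffold gene Tjp1 and the strand gene Ocln fell in the same 3 subsets by 0.82 to 1.97, Cldn4 fell in suprabasal cells by 1.59 and F11r in upper follicle basal cells by 0.73. Tjp1 in basal cells did not pass with the block (adjusted p = 0.074).

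Of 6 gap junction genes, which code for channels between cells, Gjb2 (connexin 26) rose and no other passed. It had 17.9 ± 18.9 CPM in control and 164 ± 127 in expanded suprabasal libraries, a log2 fold change of 3.07 ± 0.27 (n = 4 each, edgeR adjusted p = 3.4e-05), and rose in basal cells by 4.40 ± 0.75 (0.0080). With each day and round as a block the basal value of Gjb2 was 8.64, so its size is uncertain. DESeq2 called 1 gene of this list in suprabasal cells and 1 in basal cells. In upper follicle basal and bulge cells edgeR called 0 of 5 and 0 of 6, where 2 and 3 had an unadjusted p under 0.05 and DESeq2 called 0 and 0. Of 14 other adherens junction genes, Nectin2, a nectin at these contacts, fell by 1.68 ± 0.22 in suprabasal (9.4e-04) and by 1.53 ± 0.40 in basal cells (0.034). Cdh3, which codes for P-cadherin, rose by 1.39 ± 0.28 in suprabasal cells (0.011), from 11.2 ± 4.38 to 34.0 ± 9.60 CPM. DESeq2 called 1 gene of this list in suprabasal and 1 in basal cells, Nectin2 in both, and gave Cdh3 an adjusted p of 0.056. No other gene of this list passed, and 0 of 13 passed in upper follicle basal and 0 of 14 in bulge cells with edgeR, where 3 and 4 had an unadjusted p under 0.05 and DESeq2 called 2 and 1. The catenin genes passed nowhere: in suprabasal cells Ctnna1 was at −0.48 ± 0.16 (0.074), Ctnnb1 at 0.17 ± 0.16 (0.553) and Ctnnd1 at −0.37 ± 0.18 (0.234).

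Of 9 other desmosome and envelope plaque genes, Dsg2 (desmoglein 2) and Evpl (envoplakin) fell in basal cells by 1.00 ± 0.28 (edgeR adjusted p = 0.044) and 0.98 ± 0.28 (0.047), and Ppl (periplakin) fell in suprabasal cells by 0.56 ± 0.16 (0.045). Evpl did not pass with the block (0.110). DESeq2 called 0 genes of this list in basal and 0 in suprabasal cells. The near copy Dsg1b had 54.3 ± 14.4 CPM in control and 50.2 ± 13.6 in expanded suprabasal libraries (−0.29 ± 0.22, 0.451). No gene of this list passed in upper follicle basal or bulge cells, where 3 and 0 had an unadjusted p under 0.05 and DESeq2 called 0 and 0.

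Among 9 transcription factors of epithelia, Klf4, Klf5, Grhl3 and Grhl1 fell in suprabasal cells by 0.71, 0.73, 1.06 and 0.66 on the log2 scale (edgeR adjusted p from 0.017 to 0.032). Trp63, which codes for the regulator p63, and Ovol1 fell in basal cells by 0.81 (0.045) and 1.48 (0.043). In upper follicle basal and bulge cells edgeR called 0 of 9 and 0 of 8, with 3 and 0 at an unadjusted p under 0.05 and no DESeq2 call. DESeq2 called 2 in suprabasal cells, Klf4 and Klf5, and 1 in basal cells, Trp63. With the block Trp63 (0.081) and Grhl1 (0.053) did not pass. None of the 7 listed repressors of epithelial genes passed, of which 1 had enough counts in each subset, with no unadjusted p under 0.05 and no DESeq2 call. Of 8 sheddases and junction proteases, Mmp3 fell in basal cells by 3.33 ± 0.49 (0.0041) and rose in suprabasal cells by 3.61 ± 0.90 (0.027), and Klk7, a protease of the upper layers, fell in upper follicle basal cells by 2.54 ± 0.36 (0.0015). DESeq2 called Mmp3 in basal and Klk7 in upper follicle basal cells and 0 genes of this list in suprabasal cells, where Mmp3 had an adjusted p of 0.165. In bulge cells 0 of 5 passed, with 1 at an unadjusted p under 0.05 and no DESeq2 call.

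Outside keratinocytes, Cdh1 was seen in several classes of cell. It had 177 ± 31.8 CPM in control and 165 ± 19.1 in expanded keratinocytes summed (n = 5 each), 78.2 ± 22.7 and 96.5 ± 23.8 in T cells, 83.7 ± 18.7 and 77.7 ± 8.21 in melanocytes (n = 4 each) and 53.6 ± 19.7 (n = 4) and 63.3 ± 19.5 (n = 5) in Schwann cells. A class named Langerhans cells by its markers had 47.1 ± 21.9 and 109 ± 35.0 CPM, and other dendritic cells 44.9 ± 39.7 and 123 ± 50.9 CPM, in which the arms overlapped. The Langerhans class had 1272 CPM of Cd207, 1052 of Ccr7 and 103 of Flt3. A dendritic cluster of 2541 cells had 180, 79.0 and 30.1 CPM of these genes. Ccr7 and Flt3 were on the list of dendritic markers, so the name of the Langerhans class is uncertain. Whether the cells of that class lay in the epidermis was not tested. Fibroblasts had 0.479 ± 0.293 and 1.29 ± 0.923 CPM. No test was made in these classes. Of the cells with enough UMIs, 13.5% of control T cells had a Cdh1 UMI after thinning to 2000 UMIs, against 0.189% of control fibroblasts, at median depths of 3746 and 11340.5 UMIs. Krt14 was at 966 CPM in the melanocyte cluster, against 56.9 and 69.9 CPM in the Schwann cell clusters. The part of free keratinocyte RNA in these values was not tested.

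Jup was highest outside keratinocytes in lymphatic endothelial cells, at 174 ± 28.6 CPM in control and 164 ± 30.9 in expanded libraries (n = 5 each), where endothelial cells of blood vessels had 38.9 ± 10.3 and 24.5 ± 3.19. Plakoglobin is known as a part of lymphatic endothelial junctions. Pkp3 was at 54.6 ± 22.1 and 52.9 ± 27.7 CPM in T cells and at most 16.7 CPM on average in the other classes outside keratinocytes. Dsp was at 61.7 ± 66.8 CPM in expanded melanocytes and 28.0 ± 28.8 in control ones, a spread as large as the mean. These melanocytes had 966 CPM of Krt14, and the part of keratinocyte RNA in their Dsp was not tested.

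**Figure D5:**
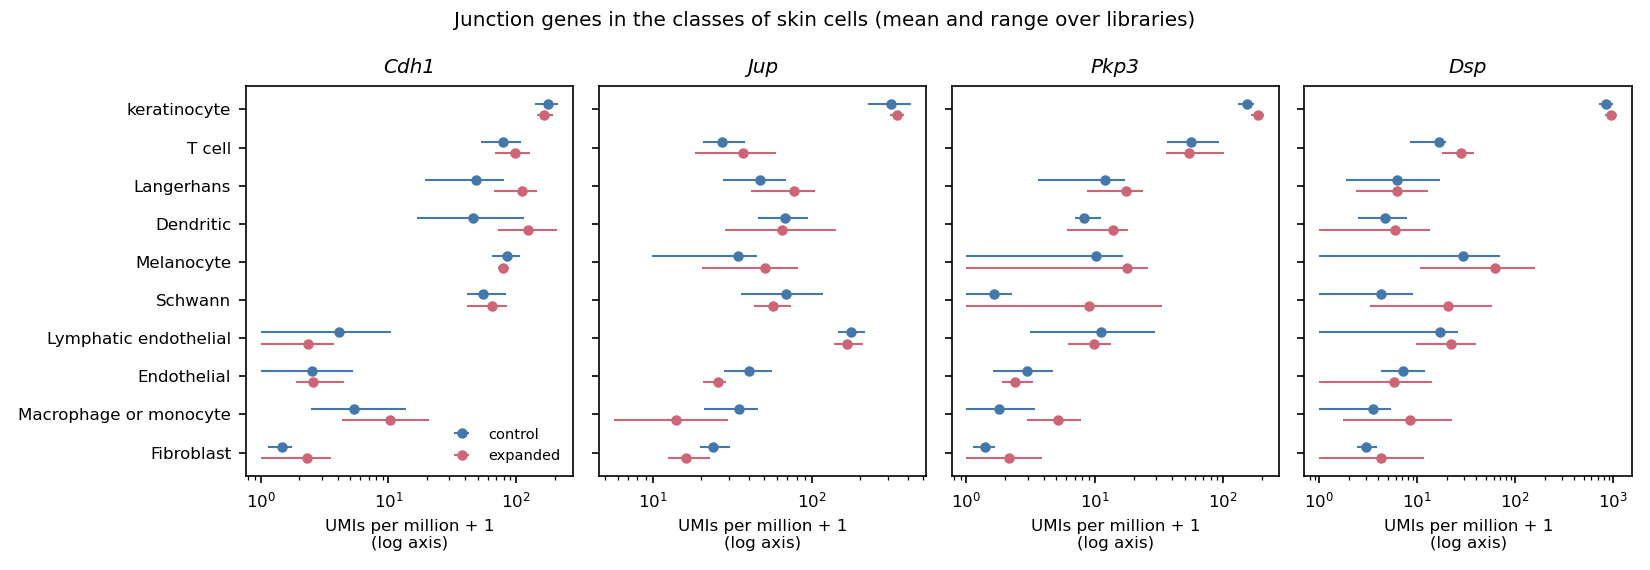
Level of Cdh1, Jup, Pkp3 and Dsp (horizontal log axis, CPM plus 1; points are means and bars ranges over libraries, colours give the arm) in 10 classes of skin cell. Jup in lymphatic endothelial cells (174 and 164) and Cdh1 in T cells (78.2 and 96.5) stand above fibroblasts.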

How the data were processed

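The deposited matrices hold UMI counts per gene and cell, which the authors deposited after Cell Ranger 6.1.2 on mm10, per the submitters' processing notes. Hashtag counts, which tag the mice of a pool, were used to drop doublets in the libraries that had them. Barcodes needed 200 genes, 500 UMIs and a mitochondrial share of no more than 10%. Scrublet (scanpy 1.11.5) marked 809 doublets, 0.0584% to 2.97% per library, and hashtags 797, and both were removed. Scrublet marked under 0.5% in some libraries, most of them expanded, so doublets remain there. These were the expanded libraries of day 2 (0.0589% and 0.208%) and day 4 (0.0584%). The control library of day 2, round 1, had 0.366%. Cells were clustered on 2000 variable genes, 30 principal components and 15 neighbours (Leiden, resolution 1), keratinocytes again without the listed junction genes. No count column was left unmapped.

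Counts were summed per subset and library with at least 20 cells and tested with edgeR 4.0.16 (R 4.3.3): quasi-likelihood F test, day and arm in the model, TMM scaling, its filter on low counts, and Benjamini-Hochberg adjustment over all genes tested, at 0.05. All libraries of a subset shared 1 estimate of the spread. The SE given with a log2 fold change is its size divided by the square root of F, as edgeR reports no SE. Total UMIs of 17726739 to 75470722 per library set the precision. The planned comparison of basal with spinous cells used suprabasal cells instead, because too few libraries had 20 spinous cells. Ratios were tested by exact permutation within day (scipy 1.17.1). The titles in the labels give each library a sequencing round, and libraries of the same day and round were taken as pairs. Their deviations correlated at 0.173 to 0.422 on day 1 and at −0.0388 and 0.0944 on day 2. On simulated counts with 200 genes changed, the test recovered 35% (basal), 55% (suprabasal), 76% (upper follicle basal) and 76% (bulge) of changes of 1 on the log2 scale.

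Alternatives were DESeq2 1.42.0, its size factors, no filter, thinning to 2000 UMIs, other cell minimums and clusterings, pairs as a block and each library left out. The 10 genes and the lists were chosen with earlier results of these data known. Named are all 10 genes, up to 6 passing genes per list and subset (1 is not reported here), and the 5 genes most like Dsp and Cdh1.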

Additional observations from a re-analysis of the deposited data

Results flagged for a closer look

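A library stood apart from the others of its arm in 7 of the 70 groups examined by Dixon's criterion, where chance gives about 1 in 20. In suprabasal cells these were Dsg1a at 239 CPM in the day 2, round 2 control (the others 533 to 579), Dsg3 at 93.2 in day 1, round 2, of the control arm (157 to 167), Pkp1 at 491 in the day 4 control (340.0 to 362) and Pkp3 at 185 in the day 1, round 1 control (228 to 229.7). Expanded suprabasal libraries stood apart for Dsp, at 1817 CPM on day 2, round 1 (1448 to 1487), and for Jup, at 1031 on day 1, round 1 (614 to 643). In upper follicle basal cells Dsc2 was at 5.79 CPM in the expanded library of day 2, round 1 (0 to 1.497).

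The effect of expansion differed between days in basal cells, by edgeR's adjusted p, for Dsg1a (0.0034), Klf4 (0.0015), Klf5 (0.0012), Ovol1 (0.012) and Mmp3 (0.028). The effect on Mmp3 was 7.19 higher on the log2 scale in suprabasal than in basal cells (edgeR adjusted p = 0.021).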

How the results depend on the processing

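The numbers of genes called moved most. In basal cells they were 1189 without a filter, 1385 with at least 10 cells, 1182 without day 2, round 1, and 82 to 1202 with 1 library left out. In suprabasal cells they were 252 with DESeq2, 70 after thinning, 331 at resolution 1.5, 984 over all keratinocytes summed, 173 in Krt79-high cells alone, and 86 to 545 with 1 library left out. In upper follicle basal cells they were 453 with the block, 642 without a filter, 76 after thinning, 471 with at least 50 cells, 984 summed and 44 to 462 with 1 library left out. In bulge cells they were 369 with the block, 337 with DESeq2, 725 without a filter, 45 after thinning, 117 with at least 50 cells, 984 summed, 83 with subclusters weighted equally and 40 to 183 with 1 library left out. Differences between days numbered 36 in basal, 0 in suprabasal and 3 in bulge cells after thinning, 3 in suprabasal and 1 in upper follicle basal cells without day 4, and 28 to 193 in basal cells with 1 library left out. Differences of suprabasal from basal cells numbered 4 after thinning and 0 to 23 with 1 library left out.

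Among the junction genes the reversals were of values near 0 or came with the sum over all keratinocytes. With that sum Dsg3 was 0.74, Dsc3 0.10, Dsp 0.18, Pkp3 0.25, Jup 0.11, Perp 0.18, Cdh1 −0.11, Mmp3 0.60 and Trp63 0.10. With the pairs as a block Pkp1 was −0.16 in basal and −0.048 in suprabasal cells. Besides the changes given with the results, the block changed no call of a named gene. Dsg3 in basal cells was 0.12 without a filter and 0.025 with at least 10 cells. Pkp1 was −0.029 in basal and −0.035 in suprabasal cells without day 2, round 1, −0.0047 in spinous and −0.084 in Krt79-high cells alone, and −0.0096 in upper follicle basal cells with at least 50 cells. Dsg3 in upper follicle basal cells was 0.073 after thinning. In bulge cells Jup was −0.047 after thinning, Jup −0.037 and Cdh1 −0.012 with at least 50 cells, Cdh1 −0.077, Dsp −0.0050 and Jup −0.12 at resolution 0.5, and Cdh1 −0.039 and Jup −0.040 without day 2, round 1. After thinning the difference of suprabasal from basal cells was 0.045 for Dsp and 0.13 for Pkp1. The cause of these moves was not tested.

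With 1 library left out, Dsg3 in basal cells ran from −0.16 to 0.25, Pkp1 from −0.033 to 0.22 in basal and −0.038 to 0.21 in suprabasal cells, Pkp3 from −0.035 to 0.071 and Perp from −0.0050 to 0.11 in upper follicle basal cells, and Cdh1 from −0.012 to 0.13 and Jup from −0.037 to 0.16 in bulge cells. The differences of suprabasal from basal cells ran from −0.12 to 0.094 for Dsp, −0.26 to 0.076 for Pkp1 and −0.040 to 0.17 for Perp, and the Pkp1 to Pkp3 balance from −0.012 to 0.31 in upper follicle basal and −0.16 to 0.02 in suprabasal cells. Without a filter Dsg1a passed in basal (0.0046), suprabasal (0.016) and upper follicle basal cells (0.012). For the test of expansion, thinning, other clusterings and the minimum of 50 cells could not be fitted in basal cells, nor that minimum in suprabasal cells, for lack of libraries. Few cells per library limit Dsc2 and the basal and suprabasal values. The minimum of 10 cells, leaving out day 2, round 1, the separate clusters, the equal weights and leaving out libraries of the day difference were chosen after seeing the data.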

Other observations

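T cells held Cdh1 unevenly. A cluster of 1078 T cells with 4243 CPM of Trdc, the constant gene of the delta T cell receptor chain, had 209 CPM of Cdh1, 80.6 of Jup and 54.6 of Dsp, with 40.4 CPM of Krt14. The other 4 T cell clusters had 43.3, 110, 5.33 and 0.853 CPM of Cdh1 beside 78.5, 173, 614 and 8.53 CPM of Trdc, with 50.7, 19.9, 59.0 and 37.1 CPM of Krt14. Of the Schwann cell clusters, one had 129 CPM of Cdh1 and another 24.2.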
